A study of Bos taurus with 8 samples.

Results

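Methionine and one-carbon metabolism in fetal liver was followed through 9 genes, MAT1A, MAT2A, GNMT, AHCY, BHMT, MTR, SHMT1, SHMT2 and CBS, which were chosen for their place in the route. Probes were assigned by the RefSeq accession that the array gives each of them, and 18 probes belonged to these genes. Detection required a signal well above background on 4 or more of the 8 arrays. All 18 probes had it on all 8 arrays, and 9 of 9 genes were therefore measured among 10861 genes with a detected probe. Liver RNA came from fetuses of Japanese Black cattle taken 8.5 months after conception, at gestation day 260 ± 8.3 in the labels, and was put on 1-colour bovine arrays from Agilent, each of which carries the title of a single fetus. The 4 low nutrition (LN) fetuses, L5, L6, L8 and L9, were carried by dams fed 60% of the nutritional requirement, and the 4 high nutrition (HN) fetuses, L1, L2, L3 and L10, by dams fed 120%. Dams fed exactly the requirement were not part of the comparison, all dams carried calves of the same sire from male-sorted semen, and the lightest LN and heaviest HN fetuses were the ones put on arrays, so maternal diet and fetal weight go together here. The LN arrays shared 1 slide and the HN arrays a second slide, and slide and group cannot be told apart. The comparison asks which of these enzymes had a different RNA level in the liver of LN fetuses.

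Methionine is activated to S-adenosylmethionine (SAM), the methyl donor of most methylation reactions, and each methyl transfer leaves S-adenosylhomocysteine, which is split into homocysteine and adenosine. Homocysteine is either methylated back to methionine, with betaine or a folate as the methyl source, or passed on through cystathionine to cysteine. Folate is charged with one-carbon units mainly from serine, and the liver is the organ where most of this traffic takes place.

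By limma with Benjamini-Hochberg adjustment over all 33440 detected probes, 0 of the 9 genes passed an adjusted p of 0.05, and so did 0 probes on the whole array (0%, lowest adjusted p = 0.634). At an unadjusted limma p of 0.05, GNMT was lower and MTR higher in LN, which is 2 of 9 genes, against 6.05% of all 10861 genes (3.3% higher and 2.75% lower). Of the 18 probes, 3 had such a p, against 6.32% of detected probes. The LN and HN fetuses overlapped for the brightest probe of all 9 genes, whereas 4.14% of genes showed no overlap (LN above HN for 2.59%, LN below HN for 1.56%). Of the 18 probes, 1, the less bright probe of MAT2A, showed no overlap, against 4.13% of probes. Mean signal was higher in LN for 5 of the 9 genes and lower for 4, close to the 51.6% and 48.4% of all genes. The median difference of the 9 genes was 0.058 on the log2 scale (LN minus HN, here and below), and that of all genes was 0.0075. Without HN fetus L2 the median of the 9 genes was 0.0034, and with arrays scaled to their 75th percentile it was 0.097. More than 1.25-fold apart were MAT2A and MTR (higher in LN, as were 7.82% of genes) and GNMT (lower in LN, as were 8.63%).

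**Figure D1:**
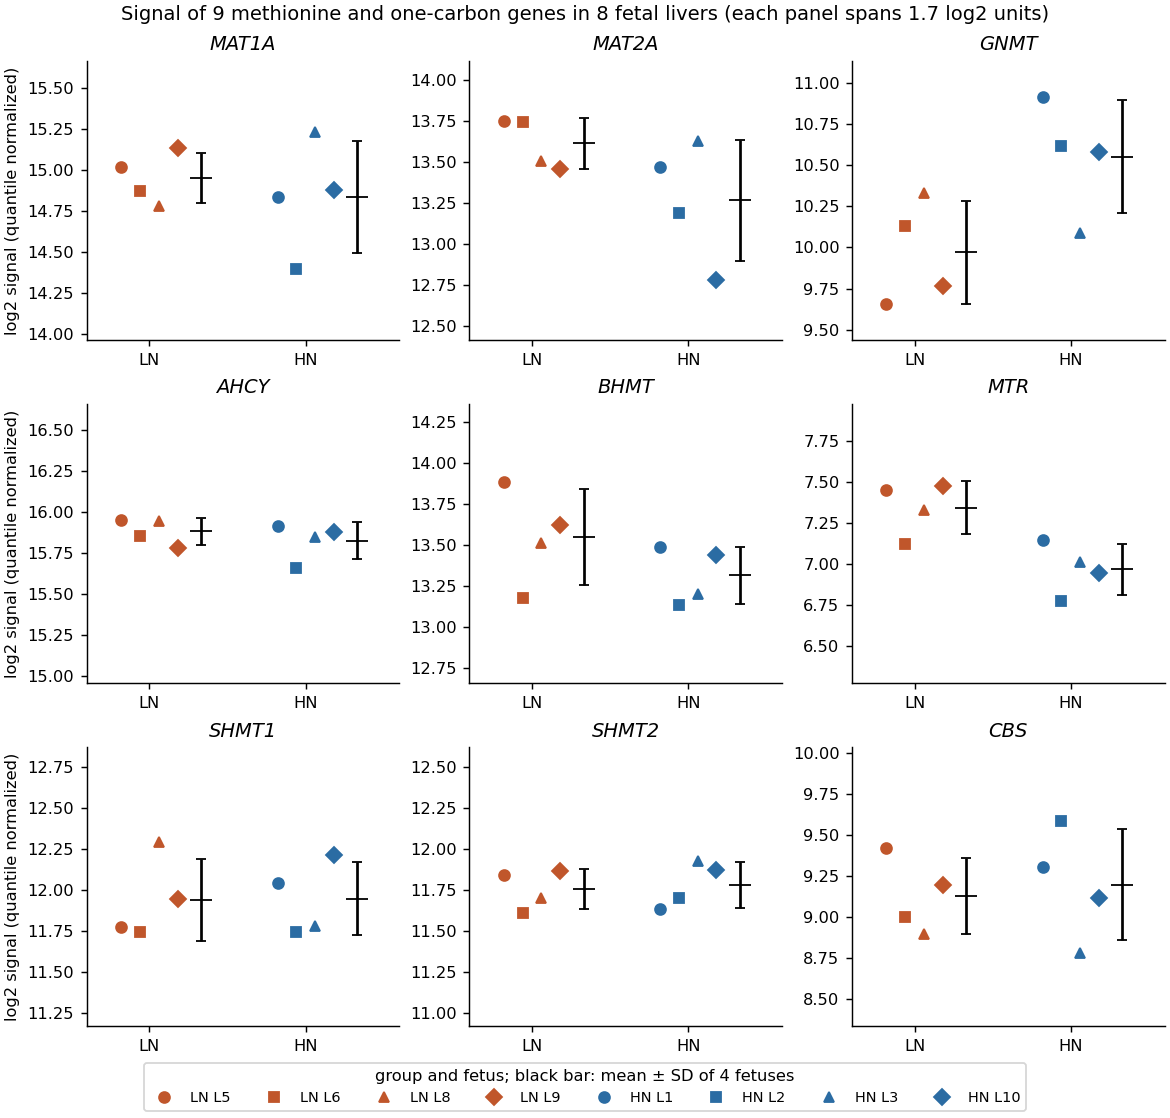
Quantile normalized log2 signal of the brightest probe of each gene (vertical axis, every panel spanning the same range) in each LN and HN fetus, with the mean ± SD of 4 fetuses as black bars. LN points for MTR lie mostly above the HN points and those for GNMT mostly below, while for SHMT1, SHMT2, AHCY and CBS the points of both groups fill the same range.

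MAT1A and MAT2A encode the catalytic subunits that make SAM from methionine and ATP. MAT1A is the form of the mature hepatocyte, and MAT2A is the form of other tissues and of the developing liver. MAT1A (NM_001046497) had log2 signals of 15.02, 14.88, 14.78 and 15.13 in LN fetuses L5, L6, L8 and L9, and of 14.83, 14.40, 15.23 and 14.88 in HN fetuses L1, L2, L3 and L10. HN held both the highest value, in L3, and the lowest, in L2, and the LN fetuses lay between them. The means were 14.95 ± 0.15 in LN and 14.84 ± 0.34 in HN (SD, n = 4 fetuses), a difference of 0.12 with a standard error of 0.18 (95% interval -0.30 to 0.53, limma adjusted p = 0.933, exact permutation p = 0.629). A second MAT1A probe gave 0.14. Both intervals allow a difference of either sign.

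MAT2A (NM_001101131) was read by a bright and a dimmer probe. On the bright one the log2 signals were 13.75, 13.74, 13.51 and 13.46 in L5, L6, L8 and L9, and 13.47, 13.19, 13.63 and 12.78 in L1, L2, L3 and L10. HN fetuses L2 and L10 lay below all LN fetuses, and L1 and L3 lay among them. The mean was 13.61 ± 0.15 in LN and 13.27 ± 0.37 in HN, a difference of 0.35 (standard error 0.19, 95% interval -0.087 to 0.78, limma adjusted p = 0.798, exact permutation p = 0.143). It was 0.18 without HN fetus L10, the lowest of the 8. On the dimmer probe the signals were 9.73, 9.33, 9.57 and 9.18 in LN and 9.08, 9.17, 8.94 and 8.57 in HN, fetuses in the same order. Every LN fetus was above every HN fetus on it, although L9 and L2 were almost level. The difference was 0.51 (standard error 0.18, 95% interval 0.11 to 0.91), with the smallest exact permutation p that 4 against 4 fetuses can give, 0.0286, an unadjusted limma p of 0.0180 and a limma adjusted p of 0.760. Averaged over both probes, MAT2A differed by 0.43 without overlap, at an unadjusted limma p of 0.0308.

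GNMT, glycine N-methyltransferase, is an abundant liver enzyme that spends SAM on glycine and so makes sarcosine, and it is known as a buffer of the SAM level. Its single probe (NM_001206116) gave log2 signals of 9.65, 10.13, 10.33 and 9.77 in L5, L6, L8 and L9, and of 10.92, 10.62, 10.09 and 10.58 in L1, L2, L3 and L10. Of the HN fetuses 3 lay above all LN fetuses, and HN fetus L3 lay below LN fetuses L6 and L8. With means of 9.97 ± 0.31 in LN and 10.55 ± 0.34 in HN, GNMT had the largest difference of the 9 genes, -0.58 on the log2 scale, or 1.50-fold higher signal in HN (standard error 0.21, 95% interval -1.07 to -0.095). The unadjusted limma p was 0.0244, the adjusted one 0.760, and the exact permutation p 0.0857. The unadjusted p was above 0.05 when LN fetus L5 (0.0664), LN fetus L9 (0.0623), HN fetus L1 (0.0695), HN fetus L2 (0.0523) or HN fetus L10 (0.0503) was left out, and also with slide position as a block (0.0693). GNMT also varied most among the 9 genes over all 8 fetuses, with an SD of 0.44.

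AHCY hydrolyses S-adenosylhomocysteine, the product that inhibits methyltransferases, and so links SAM use to homocysteine. Its brightest probe (NM_001034315) was the steadiest of the 9, with an SD of 0.097 over the 8 fetuses. LN fetuses L5, L6, L8 and L9 had log2 signals of 15.96, 15.85, 15.95 and 15.78, and HN fetuses L1, L2, L3 and L10 had 15.92, 15.66, 15.85 and 15.88. Both groups filled the same narrow range, and L2 was the lowest. The difference was 0.058 (standard error 0.11, 95% interval -0.19 to 0.31, limma adjusted p = 0.945, exact permutation p = 0.457). The other AHCY probes gave 0.18 and -0.0043, so their direction was not the same. On the brightest probe the difference was 0.0034 without HN fetus L2, 0.093 without LN fetus L9 and 0.097 with arrays scaled to their 75th percentile.

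Homocysteine is turned back into methionine by BHMT, which takes the methyl group of betaine and is largely a liver and kidney enzyme, and by MTR, methionine synthase, which uses methyl-folate and vitamin B12 and works in most cells. For BHMT (NM_001011679, 1 probe) the log2 signals were 13.88, 13.18, 13.51 and 13.62 in L5, L6, L8 and L9 and 13.49, 13.14, 13.20 and 13.44 in L1, L2, L3 and L10. Of the LN fetuses 3 lay above all HN fetuses, and L6 lay near the lowest HN values. The mean was 13.55 ± 0.29 in LN and 13.32 ± 0.17 in HN, a difference of 0.23 (standard error 0.17, 95% interval -0.15 to 0.62, limma adjusted p = 0.840, exact permutation p = 0.200). It was 0.12 without L5 and 0.36 without L6, when the groups no longer overlapped.

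MTR (NM_001030298) had log2 signals of 7.45, 7.12, 7.33 and 7.47 in L5, L6, L8 and L9 and 7.15, 6.78, 7.01 and 6.94 in L1, L2, L3 and L10. Here, too, 3 LN fetuses lay above all HN fetuses, and L6 lay just below L1. The mean was 7.34 ± 0.16 in LN and 6.97 ± 0.15 in HN, a difference of 0.37, or 1.30-fold (standard error 0.13, 95% interval 0.073 to 0.67). The unadjusted limma p was 0.0204, the adjusted one 0.760, and the exact permutation p 0.0571. Without LN fetus L5, LN fetus L9 or HN fetus L2 the unadjusted limma p was 0.0520, 0.0552 and 0.0585, and with each array scaled to its 75th percentile it was 0.0697. With the mean over both probes MTR differed by 0.23 at an unadjusted limma p of 0.168, so that GNMT and MAT2A, in place of GNMT and MTR, were then within 0.05. The second MTR probe, whose mean signal was 6.90 beside 7.16 for the first, differed by only 0.090 (standard error 0.20, 95% interval -0.36 to 0.54). With normexp, a model-based correction of local background, the second probe became the brighter one, and MTR was then 0.032 higher in LN, while the difference of the first probe shrank to 0.23. The unadjusted limma p of that first probe was 0.0310 under normexp.

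SHMT1 in the cytosol and SHMT2 in mitochondria move a one-carbon unit from serine to folate and leave glycine. SHMT1 (NM_001015553) had log2 signals of 11.77, 11.75, 12.29 and 11.94 in L5, L6, L8 and L9 and of 12.04, 11.75, 11.78 and 12.22 in L1, L2, L3 and L10. Each group held both low and high fetuses, and the difference was -0.0079 (standard error 0.17, 95% interval -0.39 to 0.37, limma adjusted p = 0.995, exact permutation p = 0.943). Its other probes gave -0.22 and -0.042. SHMT2 (NM_001034282) had 11.84, 11.61, 11.70 and 11.86 in LN and 11.63, 11.70, 11.93 and 11.87 in HN, fetuses in the same order. The groups overlapped almost wholly, with a difference of -0.028 (standard error 0.12, 95% interval -0.30 to 0.25, limma adjusted p = 0.979, exact permutation p = 0.657), while the other probes gave 0.011 and -0.13. Both intervals include 0 and run about as far above it as below.

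CBS joins homocysteine to serine and so commits it to cysteine synthesis. Its single probe (NM_001102000) gave log2 signals of 9.42, 9.0, 8.90 and 9.20 in L5, L6, L8 and L9 and 9.31, 9.59, 8.78 and 9.12 in L1, L2, L3 and L10. HN held both extremes, L2 at the top and L3 at the bottom. It differed by -0.068 between LN and HN (standard error 0.19, 95% interval -0.51 to 0.37, limma adjusted p = 0.962, exact permutation p = 0.800).

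**Figure D2:**
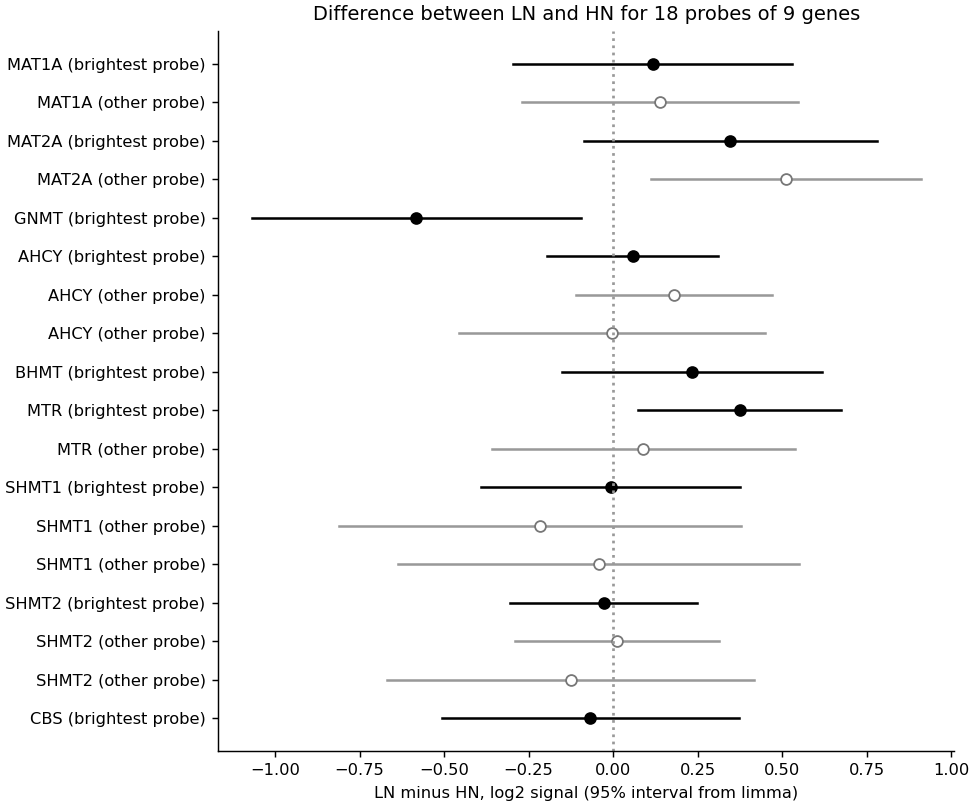
LN minus HN difference in log2 signal (horizontal axis) for each of the 18 probes, as points with 95% intervals from limma, filled for the brightest probe of a gene. The intervals of GNMT, of the brightest MTR probe and of the other MAT2A probe lie to one side of 0, at unadjusted confidence, and those of the other probes include it.

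Single fetuses stood out across several of these genes. HN fetus L2 had the lowest signal of the 8 fetuses for 5 of the 9 genes (MAT1A, AHCY, BHMT, MTR and SHMT1) and the highest for CBS. LN fetus L5 had the highest for MAT2A, AHCY and BHMT and the lowest for GNMT. Without L2, MAT1A differed by -0.031 in place of 0.12 and CBS by 0.062 in place of -0.068, so the direction of both rests on that fetus. CBS also changed sign, to 0.0091, without LN fetus L8.

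Enzymes that share a substrate were also compared within each array, where the difference between their log2 signals does not depend on the array's overall brightness. Only the change of that difference between groups has a meaning, since each probe has its own brightness. MAT1A minus MAT2A was lower in LN by 0.23 (LN minus HN -0.23, standard error 0.23), and the difference was -0.053 without HN fetus L10 and -0.35 without HN fetus L2. SHMT1 minus SHMT2 differed by 0.020 (standard error 0.19). At the fork of homocysteine, BHMT minus MTR differed by -0.14 (standard error 0.10), with -0.21 without LN fetus L5 and -0.092 without LN fetus L6, and CBS minus MTR by -0.44 (standard error 0.23). All of these pairs overlapped between groups and were not tested. The value of CBS minus MTR rested in part on HN fetus L2, at 0.80 above the mean of the 8 fetuses, and was -0.25 without it. BHMT minus MTR changed sign to 0.22 under normexp, where MTR was read by its other probe, and CBS minus MTR was then -0.077.

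**Figure D3:**
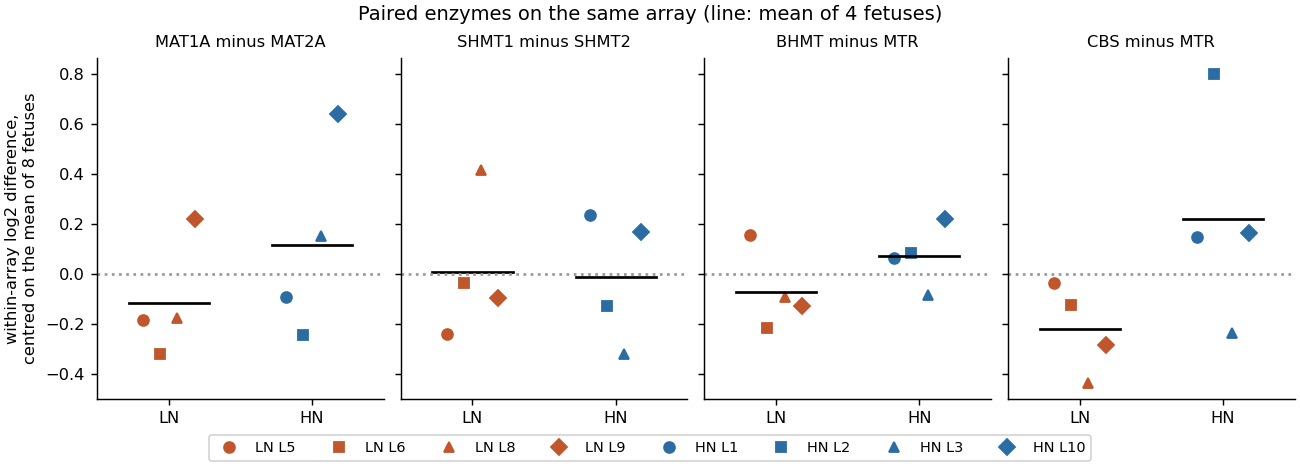
Difference in log2 signal between paired enzymes on the same array, centred on the mean of the 8 fetuses (vertical axis), for each LN and HN fetus, with a line at each group's mean. For every pair the groups overlap, and for CBS minus MTR the HN fetus L2, at 0.80, stands far above the other fetuses.

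The other genes of methionine, folate, betaine, serine and sulfur amino acid metabolism were taken from a list of 71, of which 61 had a detected probe. Mean signal was higher in LN for 33 and lower for 28, with a median difference of 0.010. These directions are those of the brightest probes. More than 1 probe was detected for 40 of the pathway genes, and 11 of those had probes in both directions. At an unadjusted limma p of 0.05, 3 were higher (CTH, MTHFD1L and SRR) and 4 lower (FTCD, PIPOX and TST among them), which is 11.5% of the list against 6.05% of all genes. LN and HN did not overlap for 7 genes, again 11.5% against 4.14%. By limma 0 of the 61 passed adjustment (lowest adjusted p = 0.760). The unadjusted p of FTCD, PIPOX, CTH and MTHFD1L stayed within 0.05 in all 17 alternative settings.

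CTH, cystathionine gamma-lyase, is the enzyme after CBS and releases cysteine. Its log2 signals (NM_001024567) were 8.61, 8.44, 8.37 and 8.23 in L5, L6, L8 and L9 and 8.16, 7.79, 7.86 and 7.26 in L1, L2, L3 and L10. All LN fetuses lay above all HN fetuses, by a mean of 0.64, or 1.56-fold (standard error 0.19, 95% interval 0.20 to 1.08, exact permutation p = 0.0286, unadjusted limma p = 0.00917, adjusted 0.760). The second CTH probe gave 0.70, also without overlap. CBS, the step before it, differed by -0.068, and the other 7 detected genes of transsulfuration and cysteine use included TST, a mitochondrial sulfurtransferase that handles cyanide, at -0.41 with LN below HN, whose unadjusted limma p was above 0.05 in 4 of the 17 alternative settings. Over the 8 genes of that role 3 had a higher and 5 a lower mean in LN, with a median of -0.076.

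Among the folate enzymes, FTCD, which takes the one-carbon unit of histidine breakdown, had the largest difference of the list. Its log2 signals (NM_001205399) were 12.45, 13.34, 13.18 and 13.35 in L5, L6, L8 and L9 and 13.70, 14.33, 13.57 and 14.42 in L1, L2, L3 and L10. Every LN fetus was below every HN fetus, with a mean difference of -0.93, or 1.90-fold higher signal in HN (standard error 0.27, 95% interval -1.54 to -0.32, limma adjusted p = 0.760, exact permutation p = 0.0286). MTHFD1L, the mitochondrial enzyme that releases formate, was higher in every LN fetus by a mean of 0.65 (standard error 0.16, limma adjusted p = 0.760, exact permutation p = 0.0286). Its signal was low, 5.25 in LN and 4.60 in HN, a second probe gave 0.29 with overlap, and under normexp the first difference shrank to 0.26. Over all 14 folate enzymes 7 means were higher and 7 lower in LN, with a median of -0.013.

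Of the enzymes that oxidise choline, betaine and their products, 4 of 5 had a lower mean in LN, with a median of -0.28. PIPOX, a peroxisomal oxidase of sarcosine and pipecolate, had log2 signals of 10.55, 9.88, 11.12 and 10.76 in LN fetuses L5, L6, L8 and L9 and 11.49, 11.62, 10.89 and 11.56 in HN fetuses L1, L2, L3 and L10. L3 lay among the LN fetuses here, as it did for GNMT, the enzyme that makes sarcosine. PIPOX differed by -0.81 (standard error 0.27, limma adjusted p = 0.760, exact permutation p = 0.0571). A second probe gave -0.66. SARDH, the mitochondrial sarcosine dehydrogenase, differed by -0.42 with a standard error of 0.37 at a low signal. The difference was -0.16 under normexp and -0.17 without LN fetus L9, but -0.58 with arrays scaled to their 75th percentile and -0.68 without LN fetus L8.

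All 6 detected genes of serine supply and breakdown had a higher mean in LN, by 0.064 to 0.72, with a median of 0.22 and overlapping groups throughout. The list joins genes that make serine with genes that break it down. Some were dim, the dimmest at a mean of 3.49 in LN and 3.41 in HN, and SRR at 5.82 and 5.49. SRR, serine racemase, named after its values were seen, alone had an unadjusted limma p under 0.05, at 0.0479 (difference 0.33, adjusted p = 0.785), and it was above 0.05 in 10 of the 17 alternative settings. PSPH, the last step of serine synthesis, had the largest difference, 0.72, with a standard error of 0.41 and an exact permutation p of 0.257. The difference was 0.44 without LN fetus L6 and 1.11 without LN fetus L8, when the unadjusted limma p was 0.00436 and the adjusted one 0.719. PSPH ranged from 9.73 in LN fetus L8 to 11.74 in LN fetus L6, so LN alone spanned the whole range of the 8 fetuses.

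Of the genes that bring vitamin B12 to MTR, TCN2, the plasma carrier, differed by -0.21 with LN below HN (its other probes by -0.39 to -0.46, all with overlap), and CD320, the receptor of that carrier, by 0.15 with LN above HN. Both were named for lack of overlap, which by itself fixes the exact permutation p at 0.0286. Their unadjusted limma p-values were 0.0682 and 0.171, and the adjusted ones 0.787 and 0.829. Over the 6 genes of vitamin B12 handling and methionine synthase upkeep 4 means were higher and 2 lower in LN (median 0.073). On their brightest probes 0 had an unadjusted limma p within 0.05. The other TCN2 probes had 0.0300, 0.0379 and 0.0708. TCN2 had 0.00909 under normexp, 0.0150 without the filter on dim probes, 0.0228 with trend and robust eBayes and 0.0333 with the mean over probes. It was above 0.05 with 75th percentile scaling (0.106), deposited values (0.0682), detection on all 8 arrays (0.0683), slide position as a block (0.147) and each fetus left out. Under normexp CD320 (0.0492) and another of the 6 genes were also within 0.05. Of the 6 detected SAM-using methyltransferases 4 had a higher and 2 a lower mean in LN, with a median of 0.046. The glycine cleavage system, which breaks glycine down to a folate one-carbon unit, had a median of -0.047, and 3 of its 4 genes had a lower mean in LN. Medians were -0.017 for methionine and SAM supply (2 means higher and 4 lower in LN) and 0.0020 for folate transport (2 of 3 higher). The list called homocysteine and adenosine removal held ADK, AHCYL1 and AHCYL2, and no removal was measured. Its median was 0.058, with 3 of 3 means higher on the brightest probes. Other probes of ADK and AHCYL2 went in both directions.

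**Figure D4:**
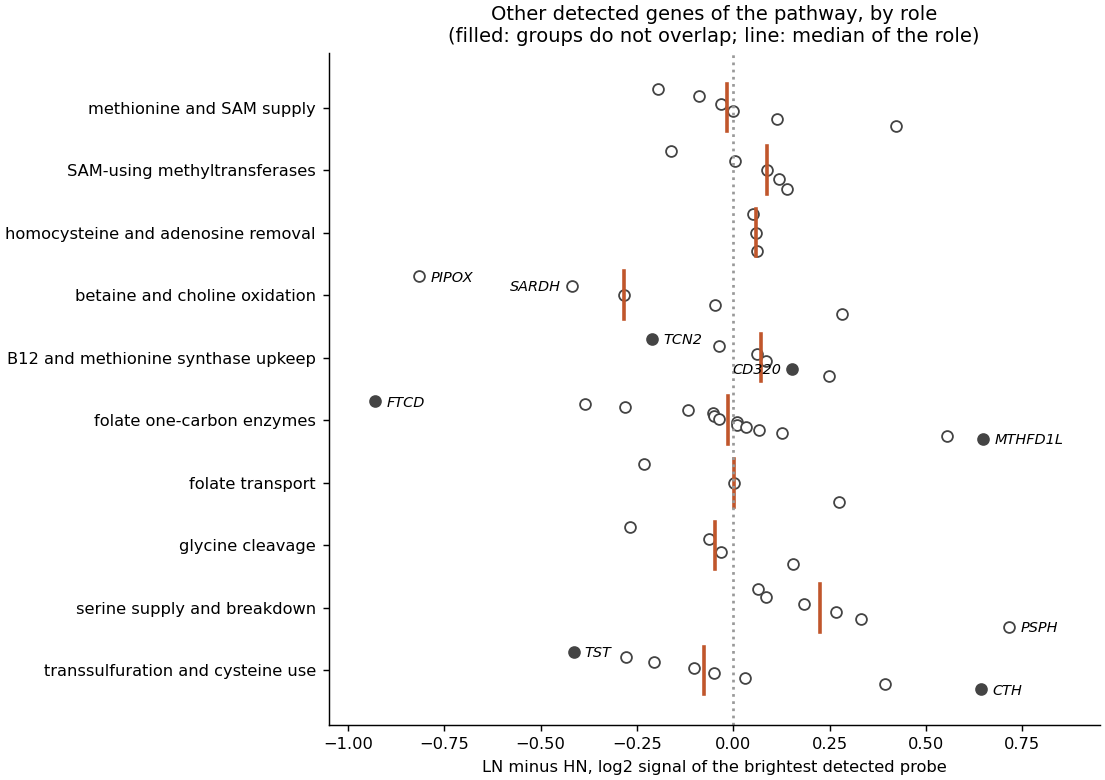
LN minus HN difference in log2 signal (horizontal axis) for the brightest detected probe of the other genes reported here, in rows by role, filled where the groups do not overlap, with a line at the median of each role. Serine genes lie to the right of 0 and most betaine and choline genes to the left, while the folate enzymes spread to both sides, from FTCD at -0.93 to MTHFD1L at 0.65.

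Genes whose pattern over the 8 arrays was most like that of a member were sought for the 3 members of largest SD, by the root mean square difference of centred log2 values, among all 10861 genes. For GNMT these were NAPRT (0.14), FCGR2B (0.16) and SGK1 (0.18), for MAT2A they were NARS1 (0.079), AOC3 (0.092) and ZNF296 (0.095), and for CBS they were PNRC1 (0.098), ISCU (0.12) and GGH (0.12). GGH, which trims the glutamate tail of folates, was the only one of these that also belonged to the pathway list. These likenesses describe 8 points and carry no test.

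The tissue label was checked against marker genes. Of 10 hepatocyte markers 9 were detected, with a mean log2 signal of 17.40 to 17.55 in LN and 17.36 to 17.50 in HN. ALB ran from 17.81 to 17.89 over the 8 fetuses, whereas AFP, the fetal albumin homologue, ran from 16.09 to 17.47 and differed by 0.34 between overlapping groups. Quantile normalization sets the value of the brightest probes by their rank, and identical values recur among these markers. The steadiness of ALB, and of the list means, therefore cannot show that hepatocyte content was steady. All 7 detected erythroid markers of 10 had a higher mean in LN (median difference 1.21), with a mean signal of 4.94 to 8.25 in LN and 4.31 to 5.50 in HN, and the highest value belonged to L5. Of 7 detected neutrophil markers of 8, 6 had a higher mean in LN (median 0.89), with 9.19 to 10.36 in LN and 8.44 to 9.65 in HN. For 3 of them, MPO (1.32), ELANE (0.91) and CATHL4 (1.78), named after their values were seen, all LN fetuses lay above all HN fetuses and the unadjusted limma p was within 0.05. The part of blood cells in the differences of MAT2A, MTR, GNMT and the other genes was not tested. Without L5 the differences of MAT2A, MTR and GNMT were 0.30, 0.33 and -0.48. Of the 9 genes, 0 then had an unadjusted limma p within 0.05, while the share of all genes with such a p was 4.79% in place of 6.05%. Leaving out L5 was not particular in this, since the count was also 0 without L9 (5.41% of all genes) or without L2 (5.80%). In bulk liver RNA, fewer cells of a type and less RNA per cell cannot be told apart. Median differences of the macrophage, endothelial, stellate and fibroblast, lymphocyte and cholangiocyte lists were -0.090, 0.088, -0.13, -0.25 and 0.12. Between 32635 and 33371 of 43803 spots were well above background on the LN arrays and between 33254 and 34369 on the HN arrays, and 0 were saturated. The small number of arrays limits how precisely a difference is known.

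**Figure D5:**
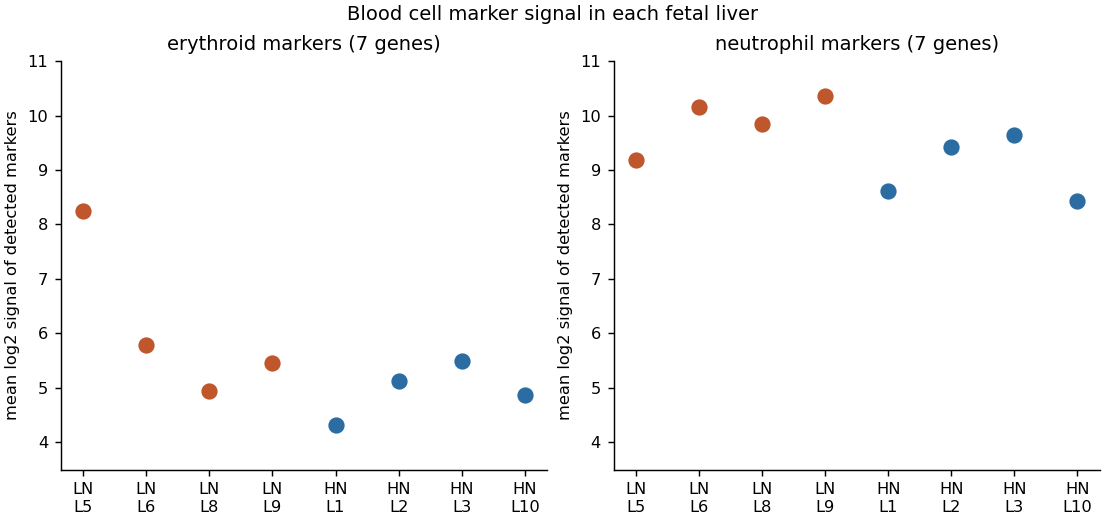
Mean log2 signal of the detected erythroid and neutrophil markers (vertical axis, not starting at 0) in each LN and HN fetus, 1 point per fetus. L5 stands highest for the erythroid markers at 8.25, with the other 7 fetuses between 4.31 and 5.79, and the mean of the neutrophil markers overlaps between groups with the highest point, 10.36, in L9.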

How the data were processed

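Arrays of 8 fetal livers, 4 LN and 4 HN, were measured in 1 colour. The authors deposited Feature Extraction 11.0.1.1 output, whose processed intensity is background-subtracted within each array and not normalized between arrays. A table of log2 values for 31068 probes, quantile normalized by the authors, was also deposited and served as an alternative. Of its values 99.99% lay within 0.01 of a quantile normalization of the same probes here.

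Control spots and outlier spots were left out, and log2 processed intensities of 43637 probes were quantile normalized. Accessions of 26740 probes were matched to 12603 genes of the RefSeq gene table (ARS-UCD2.0). Coordinates are left out because the array was designed on another build. The detected probe of highest mean signal stands for its gene. The difference between groups was tested, 2-sided, with lmFit and eBayes of limma 3.58.1 (R 4.3.3), and p-values were adjusted by Benjamini-Hochberg over the 33440 detected probes. Single genes were also tested by an exact 2-sided permutation test over 35 divisions of the 8 fetuses. The functions were tested on simulated data. The sample titles name 1 fetus for each array, although the series' design text mentions pooling of RNA by group, and the arrays were treated as 8 separate fetuses. If RNA was pooled, p-values measure technical spread only.

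Named were all 9 members, the pathway genes without overlap or among the 3 of largest difference in each direction, and the 3 genes most alike in pattern to each of the 3 members of largest SD. Absence of overlap fixes the exact permutation p at 0.0286, so for pathway genes without overlap that p restates how they were picked. SRR, ADK, AHCYL1 and AHCYL2 were named outside the naming rule, after their values were seen. For 1 pathway gene that meets this rule no values are given, and the plot by role omits it, but it is part of the counts. The members, gene lists and alternatives were chosen with earlier results of these data known. Alternatives were another scaling (75th percentile), normexp with an offset of 50, the deposited log2 values, other filters on dim probes, trend and robust eBayes, the mean over probes, slide position as a block, a Student's test, and each fetus left out. The MTR probes under normexp were looked at singly after seeing the data.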

Additional observations from a re-analysis of the deposited data

Results flagged for a closer look

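In HN fetus L3, the dimmest of the SHMT2 probes had a log2 signal of 5.96, far from the 6.42 to 6.45 of the other HN fetuses. PIPOX in the same fetus had 10.89, against 11.49 to 11.62 in the other HN fetuses. These were 1 of 36 probe and group pairs examined for the 9 genes and 1 of 20 for the named pathway genes, where chance alone would mark about 1 in 20. For SHMT2 the brightest probe had its highest value, 11.93, in that fetus.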

How the results depend on the processing

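The labels pair no LN fetus with an HN fetus, so animals were not analysed as pairs. Position on the slide, which holds 1 LN and 1 HN array each and pairs no related animals by the labels, was used as a block. In all 17 alternatives 0 of the 9 genes passed an adjusted p of 0.05 (lowest 0.559, with limma on arrays scaled to the 75th percentile), and MAT2A, GNMT, AHCY, BHMT and MTR kept their direction. Scaling to the 75th percentile turned SHMT1 to 0.0066 and the other MTR probe to -0.012. Unadjusted limma p-values of at most 0.05 were found for 1 of the 9 genes with that scaling (7.11% of all genes), 1 with normexp (7.90%) and 1 with slide position as a block (4.61%), and for 12 pathway genes without the filter on dim probes (7.32%) and 5 with the block, where the main share of all genes was 6.05%. BHMT minus MTR became 0.22 with normexp and 0.00048 with the mean over probes, with which SHMT1 minus SHMT2 became -0.042 and 1 gene, MAT2A, did not overlap. The share of all genes without overlap is not given for the mean over probes. Under the 75th percentile scaling, 612 genes were over 1.25-fold higher and 1433 lower in LN (70.1% lower), against 849 and 937 (52.5%). The cause of these changes was not tested, except that the probe of MTR changes under normexp.

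With each fetus left out in turn, differences ran from -0.031 to 0.25 for MAT1A, from -0.13 to 0.082 for SHMT1, from -0.078 to 0.021 for SHMT2, from -0.21 to 0.062 for CBS, from -0.012 to 0.21 for the other MTR probe, and from -0.11 to 0.10 for SHMT1 minus SHMT2. The number of the 9 genes at an unadjusted limma p of 0.05 ran from 0 (without L5, L9 or L2, when 4.79%, 5.41% and 5.80% of all genes had such a p) to 3 (without L6 or L3, 5.88% and 7.78%) and was 1 without L1 or L10 (5.32% and 3.80%). The number without overlap ran from 0 to 2 (BHMT and MTR, without L6) and was 1 without L1 or L3. The share of all genes without overlap is not given for these runs. With fewer fetuses, groups separate more often by chance, so these numbers cannot be set against the share in the main analysis. The pathway count ran from 4 (without L10) to 10 (without L3), beside the same shares of all genes, and the pathway median from -0.022 to 0.030.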
